A study of Homo sapiens with 4 samples.

Results

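The comparison described here is between libraries that carry the replicate number 2 and libraries that carry the replicate number 1 in a study of MCF10A cells, an established, immortalised breast epithelial cell line of human origin that does not form tumours. Members were chosen by the number in the sample title: 2 libraries numbered 2 and 2 numbered 1, which are all 4 libraries analysed here. Every library is labelled as carrying the scramble shRNA, a control designed without a gene to silence. The level of PHF8, given below, was about 5-fold lower in both libraries numbered 2, so the data do not show that these are plain scramble controls, and every difference below is one between libraries so labelled. The cells grew in medium with epidermal growth factor, cholera toxin, insulin, hydrocortisone and horse serum. Each number has 1 control library at 0 h and 1 library taken after 1.5 h with TGF-β1 at 5 ng/ml. The labels call the libraries biological duplicates. They do not say that a number marks a shared culture, passage or day, so it cannot be told from them whether a number stands for 1 culture. If it does, each side holds 1 culture, and the p-values below measure only how alike the difference was in both treatments. The effect of TGF-β1 itself is not described.

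Cultured epithelial cells pass between growth and rest as nutrients, growth factors and crowding change. Growing cells transcribe the genes of DNA copying before they transcribe those of chromosome segregation, and cells that leave the cycle repress both through the same family of promoter complexes. Sterol synthesis is switched on when membranes run short of cholesterol, through the SREBP factors. Matrix genes respond to adhesion, tension and secreted factors, and keratins mark the basal, luminal and squamous programs of breast epithelium. The mRNAs of ribosomal proteins share a pyrimidine-rich start and a large part of their control is at translation, so their level and their use can differ.

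A library held 35737659 to 40792300 estimated counts. Levels are in CPM, counts scaled to a common library size. A gene was called when edgeR's quasi-likelihood test, with treatment as a term, gave a Benjamini-Hochberg adjusted p under 0.05. Differences are log2 values, replicate 2 minus replicate 1, with a standard error (SE). Of 14774 genes tested, 6635 were called, which is 44.9% of them. Of these, 2935 were higher in the libraries numbered 2 (19.9% of the genes tested) and 3700 were lower (25.0%). With a difference of at least 1.5-fold as well, 1144 were higher (7.74%) and 1171 lower (7.93%). The difference had the same sign in the controls and in the TGF-β1 libraries for 6634 of the 6635 called genes and for 12133 of all tested genes (82.12%). The median over all tested genes was 0.0062. Across the 10519 genes with a mean of at least 5 CPM, the difference within the controls and the difference within the TGF-β1 libraries had a Pearson r of 0.832, a description across genes, which are not independent.

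The control and TGF-β1 libraries are called C1 and T1 where they carry number 1, and C2 and T2 where they carry number 2. The count of called genes fell to 3513 with DESeq2, and to between 3011 (without C2) and 4041 (without C1) when a library was left out, which also took the treatment term out of the fit. Without T1 it was 3952, and without T2 it was 3052. Upper-quartile scaling moved the median of all genes to 0.083 and turned the split to 3869 higher and 2839 lower, so counts of list members are read against that shift where they are small. The TGF-β1 library numbered 2 had a mean fragment length of 187.8 bases against 170.7 to 172.3 in the other libraries. Its part in the results was not tested.

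The libraries expressed both basal and luminal keratins under both numbers. Of 23 basal markers, 2 (NGFR and OXTR) stayed under 1 TPM, the unit that corrects for transcript length, in every library. KRT5, a basal keratin, stood at 2023 to 2385 TPM. Among 24 luminal markers, 10 were under 1 TPM throughout, including KRT19, PGR, KIT and ELF5, while the other 14 were not, KRT7 at 2399 to 3539 TPM, KRT18 at 347.2 to 454.4 TPM and CD24 at 261.8 to 525.9 TPM among them. The basal keratin KRT14 stood below KRT18, at 275.1 to 329.2 TPM. Fibroblast markers under 1 TPM in every library numbered 8 of 12, COL1A2, COL3A1, LUM, THY1 and PDGFRB among them. The others were expressed in every library, DCN at 17.18 to 21.32 TPM and FAP at 27.53 to 41.53 TPM. PDPN stood at 19.02 to 28.72 TPM and COL1A1 at 1.987 to 8.765 TPM. Blood cell markers under 1 TPM in every library numbered 9 of 13. CD3D, CD3E and MS4A1, of T and B cells, were listed at 0 throughout, while the monocyte genes CD14 and CD68 stood at 22.6 to 35.87 TPM and 13.3 to 17.21 TPM, and 7 of 9 endothelial markers were under 1 TPM. The summed level of the fibroblast list was 81.01 and 79.56 TPM in the libraries numbered 1 and 70.69 and 91.24 TPM in those numbered 2, so it did not separate the numbers. The basal sum was 12260.0 and 13200.0 TPM under number 1 and 8760.0 and 9576.0 TPM under number 2. The luminal sum was lower as well, at 4727.0 and 5108.0 TPM under number 1 and 3424.0 and 3759.0 TPM under number 2.

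PHF8, a histone demethylase of the KDM7 family, was among the 55 genes called lower by 4-fold or more. The labels' protocol says that its overexpression was checked by blot and PCR, yet no library analysed here is labelled as altered in PHF8. On chrX:53936676-54048958 (GRCh38), it stood at 20.2 CPM in the control and 20.0 CPM in the TGF-β1 library numbered 1, and at 3.877 and 3.998 CPM in the same libraries numbered 2. Both libraries numbered 2 lay far below both numbered 1 (log2 difference -2.35 ± 0.10 SE, adjusted p = 2.89e-05, edgeR). The longest PHF8 transcript in the tables, of 6062 bases, carried most of this, with 651.4 and 554.5 estimated counts under number 1 and 74.6 and 80.52 under number 2. Its relatives KDM7A and PHF2 were not called, with log2 differences of 0.19 ± 0.12 SE (adjusted p = 0.247) and 0.03 ± 0.05 SE (adjusted p = 0.729). Of 18 other histone demethylases, 3 were higher (16.67%) and 4 lower (22.22%), shares near the 19.9% and 25.0% of all tested genes. Whether the libraries labelled scramble and numbered 2 differ from those numbered 1 by more than the culture cannot be told apart from the comparison itself, and the part of PHF8 in the differences below was not tested.

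**Figure D1:**
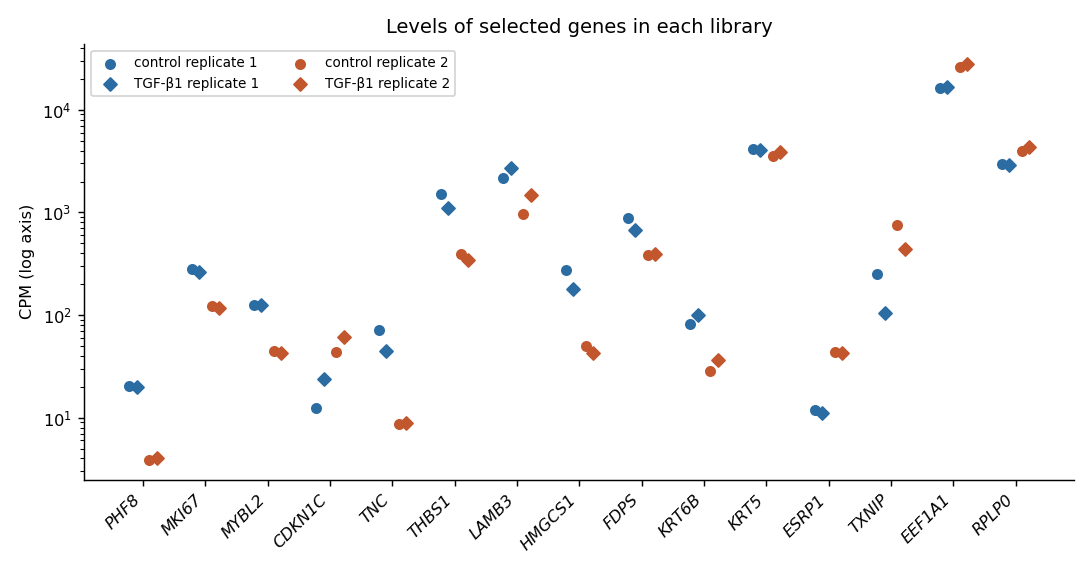
Level of 15 genes in each of the 4 libraries, as CPM on a log axis, with circles for the controls, diamonds for the TGF-β1 libraries, blue for replicate 1 and red for replicate 2. PHF8, MKI67, MYBL2, TNC, THBS1, LAMB3, HMGCS1, FDPS, KRT6B and KRT5 have both red points below both blue ones, and CDKN1C, ESRP1, TXNIP, EEF1A1 and RPLP0 have both above; KRT5 did not pass the test.

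Proliferation genes were lower in the libraries numbered 2, and this held for nearly the whole of each list. All 48 mitosis genes were called lower, 45 of them at least 1.5-fold, with a median log2 difference of -0.87 (-0.90 in the controls and -0.83 with TGF-β1). Of 53 DNA replication genes, 50 were called lower, 29 at least 1.5-fold, with a median of -0.61. These shares of 100.0% and 94.34% stand against 25.0% lower over all tested genes. DESeq2 called 48 and 44 of them lower. Leaving out any 1 library kept the mitosis count at 48 and gave 41 to 43 DNA replication genes.

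MKI67, the proliferation antigen Ki-67, stood at 279.8 and 264 CPM in the control and TGF-β1 libraries numbered 1 and at 124 and 117 CPM in those numbered 2. The groups were far apart, and the difference was alike in both treatments (-1.18 ± 0.05 SE, adjusted p = 2.66e-05). MYBL2, a transcription factor of the late cell cycle, fell from 124 and 125 CPM to 44.9 and 42.5 CPM, the largest difference of the mitosis list (-1.51 ± 0.05 SE). AURKA, the mitotic kinase Aurora A, showed 219.9 and 189 CPM against 80.5 and 78.7 CPM. Its activator TPX2 showed 289.9 and 272 CPM against 123 and 118 CPM. MYBL2, AURKA and TPX2 all lie on chromosome 20, which is taken up again below; the 44 mitosis genes on other chromosomes had a median of -0.856, and all 44 were called lower. CCNB1, the cyclin that drives entry into mitosis, showed 332 and 318 CPM against 186 and 187 CPM (-0.80 ± 0.05 SE), and TOP2A, the topoisomerase that untangles sister chromosomes, 599 and 513 CPM against 316 and 298 CPM (-0.85 ± 0.06 SE).

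Within the DNA replication list the size varied with the member. GINS1, a subunit of the replicative helicase, showed 58.2 and 50.3 CPM under number 1 and 19.3 and 18.4 CPM under number 2 (-1.52 ± 0.06 SE, adjusted p = 2.66e-05). CDC6, which loads the helicase at origins, went from 69.0 and 69.2 CPM to 29.8 and 31.2 CPM (-1.18 ± 0.05 SE). The helicase subunits MCM7 and MCM2 differed less. The log2 difference of MCM7 was -0.77 ± 0.05 SE. MCM2, with 154 and 166 CPM against 119 and 115 CPM, differed by -0.45 ± 0.06 SE. RRM2, the regulated subunit of ribonucleotide reductase, showed 263 and 256 CPM against 153 and 144 CPM. PCNA, the sliding clamp, showed 306 and 295 CPM against 189 and 193 CPM. No member of either list was higher in any treatment, since all 53 and all 48 were negative in both. Of 51 replication-dependent histone genes tested, 48 were called lower (94.12%) and 1 higher (1.961%), with a median of -0.70. All tested genes had 25.0% lower and 19.9% higher. H1-3, a linker histone, showed 174 and 150.3 CPM against 79.9 and 73.5 CPM (-1.08 ± 0.05 SE). Histone copies of near-identical sequence share reads in the estimation and are uncertain as single genes.

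The promoters of the mitosis genes are shown because the list moved as 1 block and has a known promoter element. The letters TTTGAA or TTCGAA, the element called CHR through which complexes with MuvB proteins act, were searched on both strands from 250 bases before to 50 after the start of each gene (RefSeq, GRCh38.p14). They were present in 30 of 41 mitosis genes with a promoter sequence (73.2%), against 11.5% of the 11120 tested genes with one. The following stretches run along the gene's strand and have 1 element each in capitals. They end at the start site or within 30 bases after that element. The MKI67 stretch holds a further TTTGAA, left in lower case, 41 bases before the start site.
MKI67: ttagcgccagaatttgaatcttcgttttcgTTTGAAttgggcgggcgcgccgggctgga
CCNB2: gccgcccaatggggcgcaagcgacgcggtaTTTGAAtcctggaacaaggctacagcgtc
PLK1: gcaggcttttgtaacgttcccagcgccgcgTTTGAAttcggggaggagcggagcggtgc
BUB1B: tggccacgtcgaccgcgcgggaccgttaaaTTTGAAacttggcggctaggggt
CENPA: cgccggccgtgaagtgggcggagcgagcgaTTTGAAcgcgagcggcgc
KIF23: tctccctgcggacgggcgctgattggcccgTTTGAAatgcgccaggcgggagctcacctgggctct

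These 6 are examples, with the element in capitals 12 (CENPA) to 49 (KIF23) bases before the start. Some mitosis genes not shown have a closer one, such as INCENP at 4 bases. The positions are chr10:128126424-128126482 on the minus strand for MKI67, chr15:59105087-59105145 for CCNB2, chr16:23678830-23678888 for PLK1, chr15:40161016-40161068 for BUB1B, chr2:26786008-26786055 for CENPA and chr15:69414264-69414329 for KIF23, the last 5 on the plus strand. CCNB2, a second mitotic cyclin, had 104.3 and 102.8 CPM under number 1 and 63.8 and 64.2 CPM under number 2. PLK1, a mitotic kinase, had 95.4 and 87.0 CPM against 51.0 and 48.6 CPM. BUB1B, of the spindle checkpoint, had 122.7 and 119.2 CPM against 62.1 and 64.1 CPM. KIF23, a motor of the midbody, had 153.9 and 130.2 CPM against 72.8 and 66.1 CPM. CENPA, the centromeric histone, had 34.7 and 26.5 CPM against 13.1 and 11.7 CPM. All 5 were low in both libraries numbered 2. The DNA replication promoters seldom held this element (4.44%). They held GCGCGAAA or GCGGGAAA, letters bound by E2F factors, in 15 of 45 (33.3%) against 3.51% of tested genes. CCAAT was in 73.2% of mitosis and 84.8% of histone promoters against 36.7% of tested genes. Such matches describe the sequence and show no binding.

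Genes linked to leaving the cycle leaned the other way, with exceptions. Of them, 64.0% were called higher and 32.0% lower, against 19.9% and 25.0% of all tested genes. Of 25 tested, 16 were called higher and 8 lower, with a median of 0.33; 7 to 12 were higher when a library was left out, the fewest without C2, against 8 without T2 and 9 without T1. TXNIP, which restrains glucose uptake and binds thioredoxin, stood at 251 and 104 CPM in the control and TGF-β1 libraries numbered 1 and at 759.5 and 443 CPM in those numbered 2 (1.84 ± 0.11 SE, adjusted p = 6.08e-05). CDKN1C, the inhibitor p57 of cyclin-dependent kinases, stood at 12.4 and 23.6 CPM against 43.7 and 61.5 CPM (1.59 ± 0.10 SE). Both libraries numbered 2 were higher for each gene. CDKN1A, the inhibitor p21, went against this, at 175 and 279.7 CPM under number 1 and 156 and 246 CPM under number 2, where the groups overlapped (-0.18 ± 0.05 SE, adjusted p = 0.0198; DESeq2 adjusted p = 0.0671). RBL1, the pocket protein p107 and itself an E2F target, was lower (-1.01 ± 0.05 SE). Of 27 p53 targets, 13 were higher and 3 lower, with a median of 0.27, and 6 (without C2) to 12 were higher with a library left out, 7 of them without T1. As shares, 48.15% of the p53 targets were higher and 11.11% lower. TP53I3, a p53-induced oxidoreductase, had 82.8 and 81.5 CPM against 132 and 143 CPM.

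**Figure D2:**
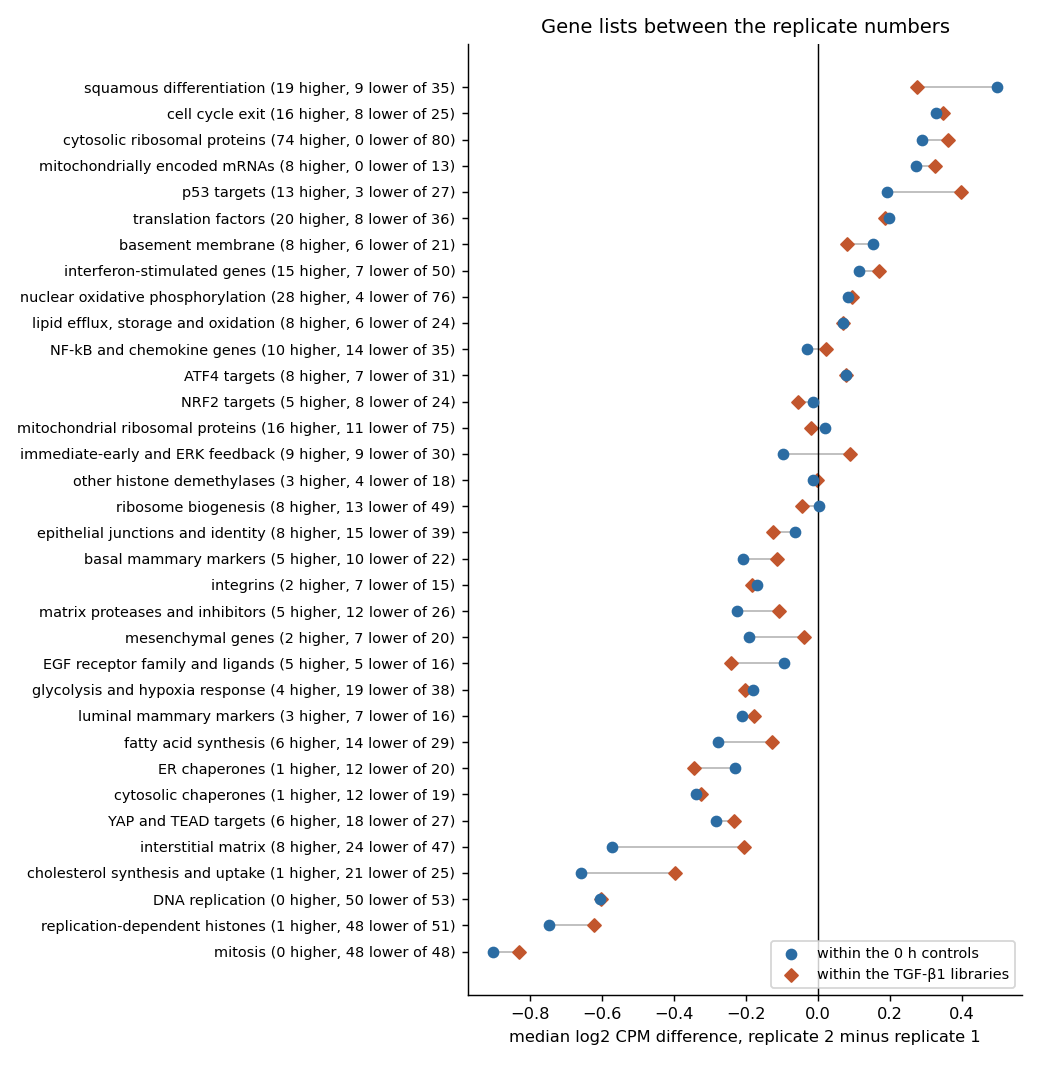
Median log2 CPM difference, replicate 2 minus replicate 1, of each gene list with at least 10 tested genes, within the controls (blue circles) and within the TGF-β1 libraries (red diamonds); the labels give the members called higher and lower of those tested. Mitosis lies lowest at -0.90 and -0.83, and the ribosomal protein list lies above 0 at 0.29 and 0.36.

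Interstitial matrix genes were mostly lower under number 2, with a minority higher. Of 47 tested, 24 were called lower and 8 higher, 17 and 5 of them at least 1.5-fold, with a median of -0.46 (-0.57 in the controls and -0.21 with TGF-β1; the difference between these was not tested, since 4 libraries leave no degree of freedom for it). The background was 25.0% lower and 19.9% higher. DESeq2 called 16 lower, and the count was 11 without C2, 14 without T2, 15 without C1 and 18 without T1. A lower count of matrix transcripts in bulk RNA cannot separate fewer producing cells from less RNA per cell.

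TNC, the matrix glycoprotein tenascin C, was at 71.4 and 44.9 CPM in the control and TGF-β1 libraries numbered 1 and at 8.65 and 8.84 CPM in those numbered 2. This was the largest difference of the list (-2.70 ± 0.15 SE, adjusted p = 5.08e-05). THBS1, thrombospondin 1, which activates latent TGF-β, was at 1495 and 1105 CPM against 390.5 and 343 CPM (-1.81 ± 0.07 SE). TGFBI, a secreted adhesion protein, was at 3683 and 3147 CPM against 1149 and 1338 CPM (-1.46 ± 0.10 SE). FN1, fibronectin, was at 435 and 257 CPM against 121 and 134 CPM, with a wider error (-1.39 ± 0.19 SE, adjusted p = 0.00125). All 4 were below their number 1 levels in both treatments. LOXL2, a collagen crosslinking enzyme, was lower by a log2 difference of -1.58 ± 0.06 SE. SPARC, a collagen-binding protein, went the other way, at 10.6 and 9.28 CPM against 18.1 and 20.8 CPM (0.97 ± 0.11 SE). COL1A1, a fibrillar collagen chain, was low in all libraries, at 3.90 and 8.74 CPM against 2.59 and 4.90 CPM, with overlap between the numbers (adjusted p = 0.00824; DESeq2 adjusted p = 0.0995).

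In the basement membrane the laminin chains split. LAMA3 and LAMB3 encode chains of laminin 332, the anchoring laminin of skin and breast epithelium, and both were lower. LAMA3 stood at 1934 and 1712 CPM under number 1 and 969.5 and 1015 CPM under number 2 (-0.88 ± 0.07 SE, adjusted p = 1.55e-04). LAMB3 stood at 2158 and 2681 CPM against 973 and 1467 CPM (-1.01 ± 0.07 SE). LAMB1, a chain of other laminins, was higher, at 627 and 593 CPM under number 1 against 826 and 879 CPM under number 2 (0.48 ± 0.06 SE). HSPG2, the proteoglycan perlecan, was at 137 and 161 CPM against 263 and 264 CPM (0.83 ± 0.06 SE). The collagen IV chains COL4A1 and COL4A2 were lower by log2 differences of -0.57 ± 0.08 and -0.78 ± 0.08 (SE). In all, 8 of 21 were higher (38.1%) and 6 lower (28.57%), against 19.9% and 25.0% of all tested genes. The median was 0.20, and the list as a whole had no 1 direction.

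Among 26 matrix proteases and inhibitors, 12 were lower (46.15%) and 5 higher (19.23%), against 25.0% and 19.9% of all tested genes. ADAM19, a membrane protease that sheds growth factors, had 53.7 and 28.0 CPM against 5.73 and 4.63 CPM (-2.93 ± 0.15 SE, adjusted p = 3.99e-05). Of the tissue inhibitors of metalloproteases, TIMP1 was lower, at 431 and 403 CPM against 223 and 257 CPM, and TIMP3 higher, by a log2 difference of 1.03 ± 0.06 SE. The count of lower members was 4 without C2, 5 without C1, 7 without T2 and 9 without T1. Of 15 integrins, 7 were lower and 2 higher, with 4 lower without C2 or without T2. As shares, 46.67% of the integrins were lower and 13.33% higher. ITGA3, the receptor chain for laminin 332, had 897 and 859.7 CPM against 519 and 535 CPM (-0.74 ± 0.05 SE). ITGB4, its hemidesmosomal counterpart, was not called (-0.05 ± 0.06 SE, adjusted p = 0.5001). ITGB8, which activates latent TGF-β, was higher (0.62 ± 0.05 SE).

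Most cholesterol genes were lower under number 2, while fatty acid genes were divided. Of 25 cholesterol synthesis and uptake genes, 21 were called lower (84.0%, against 25.0% of all genes) and 1 higher, 12 and 1 of them at least 1.5-fold, with a median of -0.54 (-0.66 in the controls and -0.40 with TGF-β1). DESeq2 called 19 lower and 0 higher. The count was 10 without C2 and 12 without T2, against 18 without C1 and 21 without T1.

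HMGCS1, which makes the precursor of mevalonate, stood at 276 and 179 CPM in the control and TGF-β1 libraries numbered 1 and at 50.4 and 42.3 CPM in those numbered 2. Its difference was the largest of the list (-2.27 ± 0.09 SE, adjusted p = 2.66e-05). FDPS, which makes farnesyl diphosphate, was at 888 and 679 CPM against 384 and 392 CPM (-1.002 ± 0.0963 SE). SQLE, an enzyme of sterol synthesis, was at 350.3 and 294 CPM against 177 and 182 CPM. INSIG1, the sterol-regulated anchor of SREBP in the endoplasmic reticulum, was at 138 and 104 CPM against 51.5 and 46.5 CPM (-1.29 ± 0.07 SE). In each of these genes both libraries numbered 2 were below both numbered 1. TM7SF2, a sterol reductase, was the 1 member called higher, at 2.92 and 2.61 CPM against 5.35 and 4.66 CPM (adjusted p = 0.00571), and PMVK, a kinase of the mevalonate pathway, was not called. SREBF2, which encodes the factor SREBP2 that drives the pathway, was not called either, at 124 and 112 CPM against 121 and 122 CPM (0.04 ± 0.06 SE, adjusted p = 0.564).

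CCAAT, the letters bound by the factor NF-Y that acts beside SREBP, was in 15 of 19 cholesterol promoters (78.9%) against 36.7% of tested genes. The sterol element spelled TCACCCCAC was in 1 of the 19, SREBF2 itself, against 0.396% of tested genes. Its stretch of chr22:41832942-41833010 (plus strand, GRCh38.p14, RefSeq) is shown with these letters in capitals, because it is the 1 promoter of the list that holds them.
SREBF2: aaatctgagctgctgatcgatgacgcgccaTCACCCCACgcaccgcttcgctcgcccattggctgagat

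Of 29 fatty acid synthesis genes, 14 were lower (48.28%) and 6 higher (20.69%), against 25.0% and 19.9% of all tested genes. The median was -0.20. DESeq2 called 9 lower, and the count was 4 without C2, 8 without T2, 9 without C1 and 13 without T1. FASN, the fatty acid synthase, was not called, at 903 and 823 CPM against 902 and 873 CPM (0.04 ± 0.05 SE, adjusted p = 0.563). ACLY, which supplies acetyl-CoA, and SCD, the desaturase, were lower with edgeR (adjusted p = 0.0101 and 0.0249) and not with DESeq2 (0.153 and 0.272). ACSS2, which makes acetyl-CoA from acetate, was lower at 134 and 93.6 CPM against 59.2 and 59.0 CPM (-0.92 ± 0.11 SE). ACACA, the carboxylase that commits carbon to fatty acids, was higher at 101 and 104 CPM against 139 and 159.7 CPM (0.54 ± 0.06 SE). LPIN1, which makes diacylglycerol, was higher as well (0.64 ± 0.05 SE).

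Of 24 genes of lipid efflux, storage and oxidation, 8 were higher (33.33%) and 6 lower (25.0%), against 19.9% and 25.0% of all tested genes. PDK4, a kinase that turns cells from glucose to fat as fuel, stood at 18.0 and 13.9 CPM against 53.4 and 32.7 CPM (1.41 ± 0.09 SE, adjusted p = 7.52e-05). HADHB, of mitochondrial β-oxidation, stood at 255 and 263 CPM against 386 and 394 CPM (0.59 ± 0.05 SE). ABCG1, a cholesterol exporter, had 6.90 and 7.21 CPM against 12.7 and 13.1 CPM. All 3 were higher in both libraries numbered 2. The count of higher members was 4 without T2 and 5 without C2, and that of lower members 1 without C2 or T2 and 2 without T1.

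**Figure D3:**
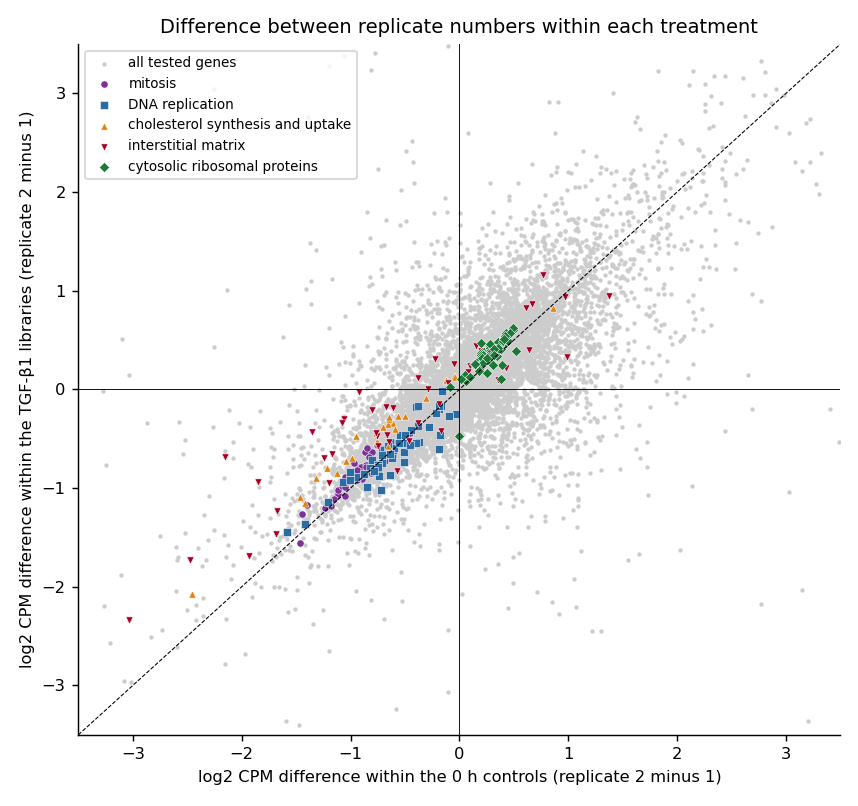
Log2 CPM difference between the replicate numbers within the TGF-β1 libraries (vertical) against that within the controls (horizontal) for tested genes, with 5 gene lists in colour and the dashed line marking equal differences. Axes stop at ±3.5, which leaves genes beyond that out. Mitosis (purple) and DNA replication (blue) lie along the line below 0, and ribosomal protein genes (green) in a tight group above 0.

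The epithelial programs did not move as blocks. Of 22 basal markers, 10 were lower (45.45%) and 5 higher (22.73%), against 25.0% and 19.9% of all tested genes. The median was -0.15. KRT17, a keratin of basal and stressed epithelium, stood at 3776 and 4272 CPM in the control and TGF-β1 libraries numbered 1 and at 2175 and 2556 CPM in those numbered 2 (-0.77 ± 0.05 SE, adjusted p = 7.77e-05). KRT6B, of activated keratinocytes, stood at 81.1 and 100.4 CPM against 28.3 and 36.5 CPM (-1.49 ± 0.05 SE). KRT6A was lower by a log2 difference of -0.51 ± 0.05 SE. The defining basal pair was not called: KRT5 had 4102 and 4062 CPM against 3515 and 3912 CPM (adjusted p = 0.0929), and KRT14 304 and 327 CPM against 311 and 385 CPM (adjusted p = 0.113). TP63, the master factor of basal identity, was higher at 65.2 and 69.8 CPM against 82.3 and 88.4 CPM (0.34 ± 0.05 SE, adjusted p = 0.00153). DST, which encodes the hemidesmosomal plakin BPAG1, was higher too (0.69 ± 0.05 SE). Upper-quartile scaling gave 8 basal markers lower and 7 higher.

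Luminal markers showed 7 lower (43.75%) and 3 higher (18.75%) of 16, against 25.0% and 19.9% of all tested genes. The luminal keratins KRT8 and KRT18 were at 278 and 263 CPM against 174 and 200.1 CPM and at 442 and 421 CPM against 348 and 358 CPM. Their log2 differences were -0.54 ± 0.07 and -0.29 ± 0.05 (SE). ALDH1A3, a retinaldehyde dehydrogenase of luminal progenitors, stood at 312 and 407 CPM against 160.1 and 160.0 CPM (-1.16 ± 0.09 SE).

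Squamous differentiation genes were higher more often than lower. Of 35 tested, 19 were higher (54.29%, against 19.9% of all genes) and 9 lower, 13 and 8 of them at least 1.5-fold, with a median of 0.37. DESeq2 called 11 higher and 6 lower; 9 were higher without C2 or without T2, 13 without C1 and 15 without T1. KRT10, the keratin of suprabasal cells, stood at 52.98 and 55.61 CPM under number 1 and 133 and 104 CPM under number 2 (1.11 ± 0.10 SE, adjusted p = 2.25e-04). SERPINB13, a protease inhibitor of differentiating keratinocytes, stood at 21.1 and 23.1 CPM against 43.1 and 46.8 CPM (1.03 ± 0.06 SE). The calprotectin genes S100A8 and S100A9, which mark stressed squamous epithelium, went down: S100A8 stood at 142 and 139 CPM against 52.9 and 55.7 CPM (-1.37 ± 0.05 SE) and S100A9 at 376 and 377 CPM against 211 and 231 CPM. IVL, the envelope protein involucrin, was lower with edgeR only, at 3.30 and 4.81 CPM against 1.67 and 3.39 CPM, with overlap (adjusted p = 0.0242; DESeq2 adjusted p = 0.195).

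Of 39 junction and identity genes, 15 were lower (38.46%) and 8 higher (20.51%), against 25.0% and 19.9% of all tested genes. The median was -0.11. CDH1, E-cadherin, was at 327 and 326 CPM against 249 and 248 CPM (-0.39 ± 0.05 SE, adjusted p = 7.10e-04). ESRP1, the splicing factor of epithelial isoforms, was at 11.95 and 10.99 CPM against 43.5 and 42.3 CPM (1.90 ± 0.07 SE, adjusted p = 2.66e-05). CLDN1, a tight junction protein, was at 34.2 and 28.7 CPM against 58.3 and 49.0 CPM. The fewest lower members, 6, were found without C2, with 7 without T2 and 9 without T1. Of 20 mesenchymal genes, 7 were lower (35.0%) and 2 higher (10.0%). CDH2, N-cadherin, was at 15.35 and 10.99 CPM against 3.99 and 4.14 CPM (-1.68 ± 0.15 SE). AXL, a receptor kinase, was at 77.5 and 74.0 CPM against 38.0 and 42.8 CPM. VIM, vimentin, was not called, at 703 and 594 CPM against 585 and 596 CPM (adjusted p = 0.190).

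Most ribosomal protein mRNAs were higher in the libraries numbered 2, by small amounts. Of 80 genes for cytosolic ribosomal proteins, 74 were called higher (92.5%, against 19.9% of all genes) and 0 lower, with a median of 0.325 (0.29 in the controls and 0.36 with TGF-β1). The 6 not called included both members below 0, RPS16 (-0.23, adjusted p = 0.107) and RPL38 (-0.03, adjusted p = 0.671). None was called at 1.5-fold or more, and the highest value was 0.55, of RPL12. DESeq2 also called 74 higher, and 56 to 69 were higher with a library left out. They took 7.72% (95% Wilson interval 7.711% to 7.728%) of the counts of C1 and 7.69% (7.682% to 7.698%) of T1. Under number 2 they took 9.838% (9.829% to 9.848%) and 10.12% (10.11% to 10.13%), intervals that cover counting error only.

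RPLP0, of the ribosomal stalk, stood at 2936 and 2919 CPM in the control and TGF-β1 libraries numbered 1 and at 3958 and 4345 CPM in those numbered 2 (0.50 ± 0.06 SE, adjusted p = 5.68e-04). RPS6, the S6 kinase substrate of the small subunit, stood at 1615 and 1631 CPM against 2215 and 2411 CPM. RPL3, at the peptidyl transferase centre, stood at 2565 and 2569 CPM against 3375 and 3667 CPM. In these genes the libraries numbered 1 agreed closely and both numbered 2 were above them. EEF1A1, the elongation factor that brings tRNA to the ribosome, was the most abundant of the factors, at 16460.0 and 16540.0 CPM against 26290.0 and 28070.0 CPM (0.72 ± 0.05 SE, adjusted p = 7.50e-05). EEF2, the translocase, was at 4075 and 4311 CPM against 6008 and 6283 CPM. Of 36 translation factors, 20 were higher and 8 lower, with 4 lower without C2, T1 or T2. Of all 36, 55.56% were higher and 22.22% lower, against 19.9% and 25.0% of all tested genes. EIF6, which keeps the large subunit from joining too early, was lower at 151 and 134 CPM against 90.4 and 97.8 CPM (-0.60 ± 0.07 SE).

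Length moved with this result. The shortest of 5 length classes of genes had a median of 0.088 and the longest -0.018, and the ribosomal protein genes are short, with a median length of 615 bases against 2397 over all tested genes. With an offset for GC content and length, an alternative chosen after seeing the data, 56 were higher and 2 lower, with a median of 0.21, and limma on log2(TPM + 1) called 48 higher. The same offset gave 48 mitosis and 50 DNA replication genes lower.

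Of 49 ribosome biogenesis genes, 8 were higher (16.33%) and 13 lower (26.53%), shares near the 19.9% and 25.0% of all genes, with a median of -0.03; 7 were lower without T2 and 8 without C2. That median was 0.043 with upper-quartile scaling. TCOF1, the nucleolar protein treacle that supports ribosomal RNA synthesis, stood at 238 and 247 CPM against 81.7 and 79.1 CPM (-1.59 ± 0.05 SE, adjusted p = 2.66e-05). NCL, nucleolin, was not called (adjusted p = 0.530), while NPM1, nucleophosmin, was higher at 2569 and 2716 CPM against 3205 and 3249 CPM (0.29 ± 0.05 SE). NOB1, which finishes the small subunit's RNA, was higher by 0.75 ± 0.06 SE. Mitochondrial ribosomal proteins had 16 higher (21.33%) and 11 lower (14.67%) of 75. Nuclear genes of oxidative phosphorylation had 28 higher (36.84%) and 4 lower (5.263%) of 76, with a median of 0.09. With the GC content and length offset these counts became 10 and 26, and 16 and 16. The nuclear genes called higher were 9 without C1 or C2, 12 without T1 and 4 without T2, and the mitochondrial ribosomal proteins 5 without C1, 4 without C2, 8 without T1 and 2 without T2. Of 13 mRNAs encoded by mitochondrial DNA, 8 were higher and 0 lower, but 1 without C2, 3 without T2 and 4 without T1.

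Protein folding and glucose genes were lower more often than higher. Lower were 60.0% of endoplasmic reticulum chaperones, 63.16% of cytosolic chaperones and 50.0% of glycolysis and hypoxia genes. Higher were 5.0%, 5.263% and 10.53% of them. All tested genes had 25.0% lower and 19.9% higher. Of 20 endoplasmic reticulum chaperones, 12 were lower and 1 higher, with a median of -0.25. HSPA5, the chaperone BiP, stood at 212 and 194 CPM under number 1 and 133 and 129 CPM under number 2 (-0.63 ± 0.05 SE, adjusted p = 1.45e-04). CALR, calreticulin, stood at 692 and 645 CPM against 378 and 379 CPM. CCAAT was in 17 of 18 promoters of this list (94.4%), against 36.7% of tested genes. Of 19 cytosolic chaperones, 12 were lower and 1 higher; HSPA8, the constitutive member, stood at 3639 and 3416 CPM against 2663 and 2694 CPM. Of 38 glycolysis and hypoxia genes, 19 were lower and 4 higher, and 7 (without C2) to 12 were lower with a library left out, 8 of them without T1, 11 without T2 and 12 without C1. LDHA, lactate dehydrogenase A, stood at 1200.0 and 1223 CPM against 869.5 and 850.5 CPM (-0.49 ± 0.05 SE), whereas GAPDH, an enzyme of the same pathway, was higher at 4719 and 4767 CPM against 5564 and 5745 CPM (0.25 ± 0.05 SE).

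Targets of ATF4, the factor of the amino acid response, were divided, with 8 higher (25.81%) and 7 lower (22.58%) of 31. All tested genes had 19.9% higher and 25.0% lower. ATF4 itself was higher, at 346 and 317 CPM against 469 and 496 CPM (0.54 ± 0.06 SE). DDIT4, an inhibitor of mTORC1, was higher at 634 and 605 CPM against 974 and 1181 CPM (0.79 ± 0.08 SE). SLC7A5, a transporter of large amino acids, was lower, at 1267 and 1508 CPM against 628 and 735 CPM (-1.02 ± 0.05 SE). The count of higher targets was 3 without C2, 4 without T1 and 5 without T2.

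Some of the largest single differences fell outside these programs. IL1RL1, the receptor for interleukin 33 (chr2:102311502-102352037), had 0.982 and 1.35 CPM in the control and TGF-β1 libraries numbered 1 and 19.8 and 21.4 CPM in those numbered 2. It was close to silent under number 1, and the log2 difference was 4.14 ± 0.14 SE (adjusted p = 2.66e-05). LAPTM5, a lysosomal membrane protein best known in blood cells, had 7.58 and 5.96 CPM against 36.6 and 42.5 CPM. PROS1, the anticoagulant protein S, had 6.342 and 6.596 CPM against 34.0 and 31.3 CPM. SLC7A2, a transporter of cationic amino acids, had 90.0 and 97.4 CPM against 323 and 321 CPM, and PER2, a component of the circadian clock, 8.68 and 10.9 CPM against 32.9 and 35.1 CPM. LCP1, an actin-bundling protein also best known in blood cells, went the other way, at 38.0 and 31.5 CPM against 4.423 and 3.998 CPM (-3.04 ± 0.09 SE, adjusted p = 2.66e-05). FGFBP1, a carrier that releases fibroblast growth factors, had 253 and 223 CPM against 77.3 and 69.6 CPM (-1.70 ± 0.05 SE). LAPTM5 and LCP1 differed in opposite directions. Over the whole blood cell list, 2 of 5 tested genes were higher, CD14 with 28.4 and 24.9 CPM against 40.3 and 40.7 CPM (adjusted p = 6.46e-04) and HBA1 at under 1 CPM, and its summed level was 46.78 and 41.11 TPM under number 1 and 55.12 and 51.91 TPM under number 2. The part of other cells in these genes was not tested.

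The difference also depended on chromosome 20, a pattern seen only after the data were examined and given here without a test. Among 284 genes of this chromosome with a mean of at least 5 CPM, the median log2 difference was -0.233 (-0.250 in the controls and -0.233 with TGF-β1), and 77.8% were below 0. Medians of the other autosomes and X ran from -0.091 (chromosomes 4 and 13) to 0.038 (chromosome 19). On chromosome 20, 57.0% of these genes were called lower, against 31.9% of the 10219 genes elsewhere. Over the 7 windows of 10 Mb that hold such genes, the medians lay between -0.263 and -0.078, the last in a window of 17 genes. The 263 chromosome 20 genes in no gene list had a median of -0.226. The median was the lowest of all chromosomes under all 19 other settings of the fit, from -0.306 with limma on log2(TPM + 0.1) to -0.156 with upper-quartile scaling, where the lowest other median was -0.015. As a ratio, the median of -0.233 is a level of 0.851 of that under number 1. Of the list members named above, GINS1, PCNA, AURKA, TPX2, MYBL2, RBL1, ACSS2 and EIF6 lie on this chromosome. What the pattern stands for was not tested.

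**Figure D4:**
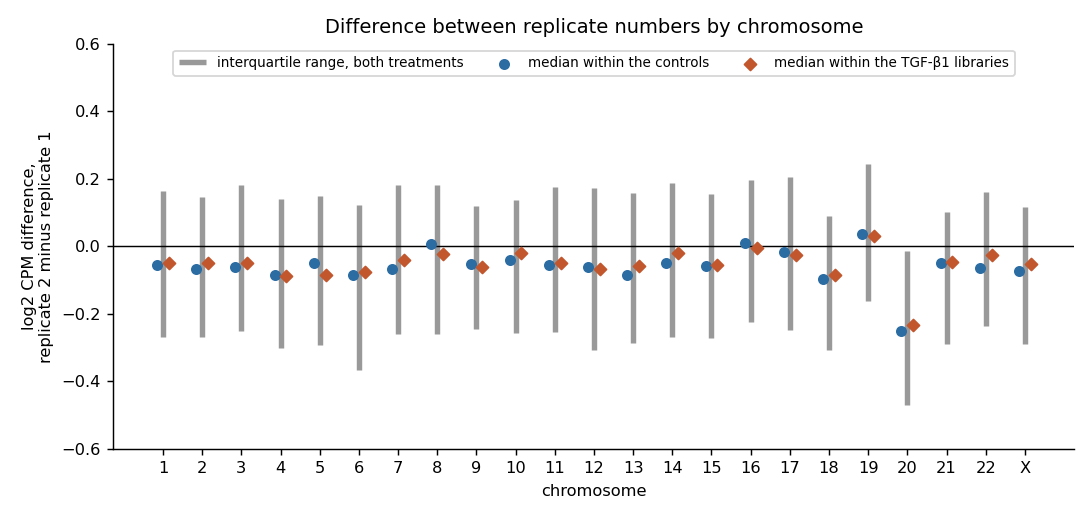
Difference in log2 CPM, replicate 2 minus replicate 1, of genes with a mean of at least 5 CPM, by chromosome: medians within the controls (blue circles) and the TGF-β1 libraries (red diamonds), with the interquartile range of the difference over both treatments as grey bars. Chromosome 20 has medians of -0.250 and -0.233, below those of all others.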

How the data were processed

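Stranded, ribosomal-RNA-depleted total RNA libraries of 4 MCF10A samples were read as 50-base paired ends, per the labels' protocols, although the molecule field of the labels says polyA RNA. Per the submitters' processing notes, the authors used kallisto and GRCh38. Neither its version nor the transcript release is stated there. The authors deposited estimated counts, in which reads that fit several transcripts are divided between them, and TPM values, which correct them for transcript length, with lengths and effective lengths in bases, per the file headers.

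Of 173259 transcripts, 159239 (91.91%) matched GENCODE release 29 by identifier without version, and belong to 34500 genes. The others held 2.24% to 2.38% of counts and were left out. Of 1307 gene list entries, 1262 had a gene in the tables; the lists of non-polyadenylated and long nuclear RNAs had none and 2 histone genes were missing. For each gene the estimated counts of its transcripts were added, and the sums rounded. Coordinates of genes are from the same GENCODE release, 1-based. Replicate numbers and treatments came from the sample titles. The fit was edgeR 4.0.16 in R 4.3.3, a quasi-likelihood test with TMM scaling and filterByExpr, with terms for treatment and replicate number. It had 1 residual degree of freedom and 5.78 prior degrees of freedom. Adjusted p-values are Benjamini-Hochberg over 14774 genes. SE is the log2 difference divided by the square root of F, an approximation. Values within a treatment are differences of log2 CPM (prior count 3) with no test. DESeq2 1.42.0 and limma 3.58.1 were alternatives. The functions were tested on simulated counts.

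The members and the 40 gene lists were chosen with earlier results of these data known, so lists are described by counts and medians with no test over a list. Genes named in the text were the 10 higher and 10 lower protein-coding genes with the largest difference (mean at least 10 CPM, no overlap between the numbers), up to 4 called members by difference and 2 by level from each list in each direction (mean at least 5 CPM, no overlap), and 53 genes always named. CCNB2, PLK1, BUB1B and KIF23 were added for their promoters. Markers are named by the marker lists. Some genes that the rule names are not reported here.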

Additional observations from a re-analysis of the deposited data

Results flagged for a closer look

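For 5 named genes the difference between the replicate numbers had opposite signs in the 2 treatments. This was not tested, since 4 libraries leave no degree of freedom for it, and none of the 5 was called. The log2 differences within the controls and within the TGF-β1 libraries were 0.452 and -0.0359 for KDM7A, -0.266 and 0.00676 for VIM, -0.137 and 0.0298 for ITGB4, -0.0383 and 0.125 for SREBF2, and -0.00223 and 0.0841 for FASN.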

How the results depend on the processing

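No paired analysis was possible because the replicate number is the factor compared, so it cannot also serve as a block; the fit pairs the libraries by treatment. The 6635 calls (2935 higher, 3700 lower) became 3513 (1280 and 2233) with DESeq2, 4101 (1371 higher) with limma on log2(TPM + 1), 4230 (1397 higher) with log2(TPM + 0.1), 4175 (1666 higher) at a threshold of 0.01, 2315 (1144 and 1171) at 1.5-fold or more and 957 (579 and 378) at 2-fold or more. With transcript lengths as an offset they were 4677 (1978 and 2699). Leaving out control replicate 1 or 2 gave 4041 and 3011 calls (1618 and 1149 higher, 2423 and 1862 lower), and TGF-β1 replicate 1 or 2 gave 3952 and 3052 (1536 and 1120 higher, 2416 and 1932 lower). Limma without a filter on low values called 0 genes in total, higher or lower, and 0 of every list below, with 5810 at an unadjusted p under 0.05 and a smallest adjusted p of 0.0644.

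Lower members at 1.5-fold or more and at 2-fold or more were 29 and 4 for DNA replication, 45 and 12 for mitosis, 17 and 8 for interstitial matrix, 12 and 5 for cholesterol, 3 and 0 for fatty acid synthesis, 4 and 3 for basal markers, and 2 and 1 for junctions. Ribosomal proteins had 0 at both, and 48 higher with limma on log2(TPM + 1). Squamous genes had 13 and 10 higher, 11 with DESeq2, 10 and 11 with limma at the pseudocounts of 1 and 0.1, and 12 at the threshold of 0.01. Fatty acid synthesis had 9 lower with DESeq2 and 9 at that threshold. Leaving out a library gave 11, 14, 15 or 18 lower for interstitial matrix, 10 to 21 for cholesterol, 4 to 13 for fatty acid synthesis, 6, 7, 9 or 11 for junctions, and 9 to 15 squamous genes higher.

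Signs turned for a few genes. With limma at pseudocounts of 1 (with or without the filter) and 0.1, ARHGEF17 was -0.0198 and -0.0218, PHF2 -0.0370 and -0.0406, SREBF2 -0.120 and -0.123, and FASN -0.00198 and -0.00199. FASN was -0.0873 with the GC content and length offset and SREBF2 -0.0611 with transcript lengths as an offset. Upper-quartile scaling gave 0.0231 for ITGB4 and 0.0332 for NCL. Leaving out 1 library, CCN1 ran from -1.73 to 0.0914, CCN2 -1.82 to 0.65, CDKN1A -0.556 to 0.191, FASN -0.0341 to 0.1, ITGB4 -0.177 to 0.0536, KDM7A -0.325 to 0.793, KRT14 -0.0288 to 0.28, MYC -0.155 to 1.56, PHF2 -0.0674 to 0.0988 and SREBF2 -0.0394 to 0.11. Further reversed values without 1 library were -0.221 for KDM7A, -0.0404 for PHF2, 0.0808 for CCN1, 0.370 for CCN2, -0.131 for MYC and 0.109 for CDKN1A. The fits without 1 library had no treatment term. They set both treatments under 1 number against 1 treatment under the other, so their values also carry the difference between treatments. The cause of each turn was not tested.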

Other observations

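CXCL8, the neutrophil chemokine interleukin 8, stood at 53.7 and 19.9 CPM in the control and TGF-β1 libraries numbered 1 and at 14.88 and 8.198 CPM in those numbered 2 (log2 difference -1.59 ± 0.13 SE, adjusted p = 1.90e-04, edgeR). IL1B, interleukin 1β, stood at 44.0 and 29.1 CPM against 17.1 and 9.27 CPM. Over the NF-kB and chemokine list, however, 10 of 35 were higher and 14 lower, and with upper-quartile scaling 13 and 12; with a library left out, 6 to 9 were lower. Of 16 genes of the EGF receptor family and its ligands, 5 were higher and 5 lower, with 2 or 3 higher and 3 to 5 lower when any 1 library was left out. As shares, 28.57% of the NF-kB list were higher and 40.0% lower, and 31.25% of the EGF receptor list each way. All tested genes had 19.9% higher and 25.0% lower. The ligands AREG, EREG and TGFA were lower by log2 differences of -0.82 ± 0.06, -0.95 ± 0.05 and -0.78 ± 0.05 (SE), and EGFR, the receptor, by -0.35 ± 0.05 SE. ERRFI1, an inhibitor of the same receptor, was higher at 66.7 and 69.3 CPM against 139 and 212 CPM (1.34 ± 0.12 SE). The receptors ERBB2 and ERBB3 were higher too, by 0.34 ± 0.05 and 0.41 ± 0.08 (SE). ERBB3 was called with edgeR (adjusted p = 0.007175) and not with DESeq2 (adjusted p = 0.125).

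Interferon-stimulated genes had 15 higher and 7 lower of 50, with 7 to 9 higher when any 1 library was left out. BST2, the antiviral membrane protein tetherin, stood at 3.85 and 3.63 CPM under number 1 and 14.2 and 14.4 CPM under number 2 (1.93 ± 0.11 SE, adjusted p = 6.02e-05), and IFI44L at 21.7 and 23.1 CPM against 45.1 and 44.2 CPM. Among YAP and TEAD targets, 66.67% were called lower and 22.22% higher, against 25.0% and 19.9% of all tested genes. Of 27 YAP and TEAD targets, 18 were lower and 6 higher, and 8 or 9 were lower with any 1 library left out.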
